A study of Mus musculus with 15 samples.

Results

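Livers labelled as overexpressing YAP were compared with livers labelled as lacking LATS, across all genes. The comparison took 11 of the 15 mouse liver libraries of the study by their titles: 5 labelled Yap OE, called YAP_OE here, and 6 labelled LATS KO, called LATS_KO. The remaining 4 libraries, labelled TdTomato, gave background levels only; the design text names wild-type livers as the third group. The labels give no strain, age, time point, promoter, Cre driver or dose, and they do not say which LATS gene was deleted or which Yap sequence was expressed. Nor do they tie each library to an animal of its own, and p-values therefore measure the spread between these libraries, which may be technical.

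LATS1 and LATS2 are the kinases at the end of the Hippo cascade. They phosphorylate YAP and its paralog TAZ, which keeps both out of the nucleus, and without that brake YAP and TAZ join TEAD factors on DNA and switch on growth and matrix genes. In the liver, active YAP is known for driving hepatocytes towards proliferation and towards a bile duct or progenitor character, with loss of metabolic functions. Losing the kinase and adding the coactivator are thus alternative ways into the same pathway, one releasing endogenous YAP and TAZ together and the other raising YAP alone.

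Gene counts per library ranged from 20911138 to 28225360 in YAP_OE and from 6166680 to 27311327 in LATS_KO. LATS_KO 3 stood apart: 89.9% of its reads were unmapped and 9710 genes were detected, against 14085 to 15641 genes in the other LATS_KO libraries and 15181 to 15493 in YAP_OE. Across genes, Pearson correlations of log2(CPM + 1) were 0.944 to 0.993 between YAP_OE libraries, and 0.800 to 0.989 between LATS_KO libraries without LATS_KO 3. LATS_KO 3 correlated with the other 10 libraries at 0.739 to 0.834. The other LATS_KO libraries were split as well. LATS_KO 1 and 2 correlated with YAP_OE at 0.930 to 0.955 and 0.913 to 0.936, and with LATS_KO 4, 5 and 6 at 0.873 to 0.901 and 0.800 to 0.847, while LATS_KO 4, 5 and 6 correlated with each other at 0.976 to 0.989. On the first principal component without LATS_KO 3 (65.0% of the variance), LATS_KO 1 and 2 were at -24.0 and -51.9, YAP_OE at -47.9 to -16.2 and LATS_KO 4, 5 and 6 at 69.3 to 94.0. The labels give no reason for this split, and both sides of it enter each LATS_KO value below. Library make-up differed along it. Reads assigned to no gene were 16.6 and 16.9% in LATS_KO 1 and 2 and 36.2 to 47.5% in LATS_KO 4, 5 and 6. In YAP_OE they were 14.2 to 34.1%. Unmapped reads were 3.46 and 4.95% in LATS_KO 1 and 2 and 10.1 to 16.7% in LATS_KO 4, 5 and 6. The part of library make-up in the split was not tested. TdTomato 1, a background library, had 78.5% unmapped reads and is listed at 0 for several genes below. The labelled tissue carried its marker: Alb, the albumin gene, was at 30109 to 134413 CPM in LATS_KO and 61295 to 116079 CPM in YAP_OE, with overlapping groups. CPM is a gene's reads scaled to a common library size. Because each library is bulk tissue, fewer cells of a type and less RNA per cell cannot be told apart in any value below.

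Of 12805 genes tested, 147 (1.15%) passed an adjusted p of 0.05 in edgeR's quasi-likelihood test with Benjamini-Hochberg adjustment over all genes, which is what "rose", "fell" and "called" mean here. YAP_OE was higher for 87 genes (0.679%) and lower for 60 (0.469%), and 82 and 44 of them changed by more than 2-fold. All YAP_OE libraries lay above all LATS_KO libraries for 86 of the 87, and below for 53 of the 60. Over all tested genes such separation occurred in 4.86% upwards and 1.83% downwards (6.15% and 4.09% without LATS_KO 3), and 956 and 1209 genes had an unadjusted p under 0.05. With DESeq2, another test, 574 of the 12805 genes passed as higher and 523 as lower. These totals are the background for the list counts below. Without LATS_KO 3, 469 genes rose and 470 fell (7.34% of 12792 tested, 3.67% in each direction), and all 147 genes called with all 11 libraries were among them in the same direction. Leaving out each library in turn gave between 34 and 469 rises and between 13 and 470 falls. Of the 147 genes, 45, of which 33 were higher and 12 lower, were called in all 11 of these fits.

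**Figure D1:**
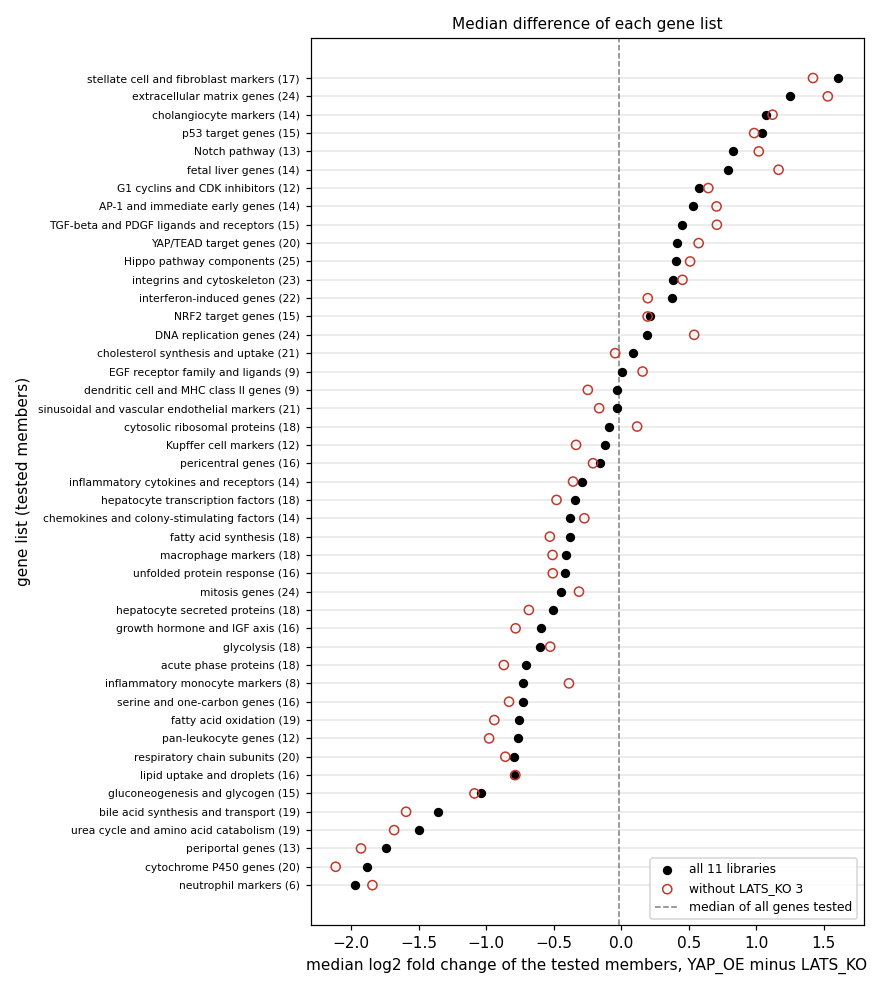
Median log2 fold change, YAP_OE minus LATS_KO, of the tested members of each gene list with at least 5 of them (filled circles, all 11 libraries; open circles, without LATS_KO 3; number of tested members in brackets), with the dashed line at the median of all genes tested. Of the lists drawn, stellate and matrix lists lie at the top (1.61 and 1.25) and periportal, cytochrome P450 and neutrophil lists at the bottom (-1.74, -1.88 and -1.97). The neutrophil median rests on 6 genes, and that list summed to only 1.53 to 6.11 CPM in YAP_OE and 2.26 to 34.5 CPM in LATS_KO.

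The genes named by the labels came first. Yap1 (chromosome 9, 7931999 to 8004596, GRCm38) reached 215, 186, 146, 195 and 182 CPM in YAP_OE 1 to 5. It was at 86.3, 65.6, 71.5, 86.3, 80.4 and 75.9 CPM in LATS_KO 1 to 6, while TdTomato gave 94.1 to 116 CPM. The groups did not overlap, and LATS_KO lay below every TdTomato library as well. Yap1 rose by 1.25 ± 0.16 (SE) on the log2 scale (edgeR adjusted p = 0.00381). Its call held without any single library. The labels do not say whether the expressed Yap sequence was of mouse, so transgene and endogenous reads cannot be told apart in this count.

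Lats1 (chromosome 10, 7681214 to 7716460) was at 14.5, 10.4, 0, 27.4, 17.9 and 22.1 CPM in LATS_KO 1 to 6. The YAP_OE libraries gave 31.4, 36.5, 39.9, 26.5 and 20.2 CPM, and TdTomato 1 to 4 gave 0, 44.8, 45.6 and 28.9 CPM. The groups overlapped, and the 0 values belong to the libraries with most reads unmapped. The log2 difference of 1.00 ± 0.72 (95% interval -0.64 to 2.64) did not pass (edgeR adjusted p = 0.522). The second kinase gene, Lats2 (chromosome 14, 57689662 to 57758388), had 29.1, 40.7, 7.60, 16.9, 17.2 and 13.9 CPM in LATS_KO 1 to 6. YAP_OE lay above this range at 63.3, 61.6, 53.9, 54.7 and 48.8 CPM, and TdTomato gave 0 to 19.7 CPM. Its difference of 1.43 ± 0.35 missed the threshold (edgeR adjusted p = 0.0738) and passed without LATS_KO 3 (1.26, adjusted p = 0.0294) and without LATS_KO 2 (adjusted p = 0.0196). Lats2 also passed in DESeq2 (adjusted p = 0.00261) and with group weights in limma voom (0.0228). Both genes thus gave reads in the libraries labelled LATS KO, apart from Lats1 in LATS_KO 3; a whole-gene count does not check a deletion of single exons, and the labels name none. Wwtr1, which encodes TAZ, was at 49.6, 73.6, 102, 22.3, 17.6 and 15.8 CPM in LATS_KO 1 to 6 and 52.7 to 68.8 CPM in YAP_OE, with LATS_KO libraries on both sides of YAP_OE (log2 difference 0.33 ± 0.46, edgeR adjusted p = 0.773).

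Of 25 tested Hippo pathway components, 1 rose, Yap1 itself, and 0 fell. Without LATS_KO 3, 3 rose, the additional ones being Lats2 and Fat4. Yap1 is named by the YAP_OE label and Lats2 may be a gene deleted in LATS_KO, so these counts are no pathway response. The list's median log2 difference was 0.40, against -0.01 for all genes tested. Fat4, a giant protocadherin upstream of the kinases, was at 4.54, 3.96, 2.81, 1.71 and 2.24 CPM in YAP_OE 1 to 5 and 0 to 0.870 CPM in LATS_KO, without overlap (log2 difference 2.28 ± 0.65, edgeR adjusted p = 0.122; 2.05 and 0.0136 without LATS_KO 3). The DNA-binding partner Tead1, chosen after its values were seen, was at 113, 149, 84.9, 16.3, 4.95 and 6.49 CPM in LATS_KO 1 to 6 and 59.9 to 103 CPM in YAP_OE (log2 difference 0.40 ± 0.76, edgeR adjusted p = 0.848). LATS_KO 4, 5 and 6 lay below all YAP_OE libraries, LATS_KO 3 within their range and LATS_KO 1 and 2 above it.

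**Figure D2:**
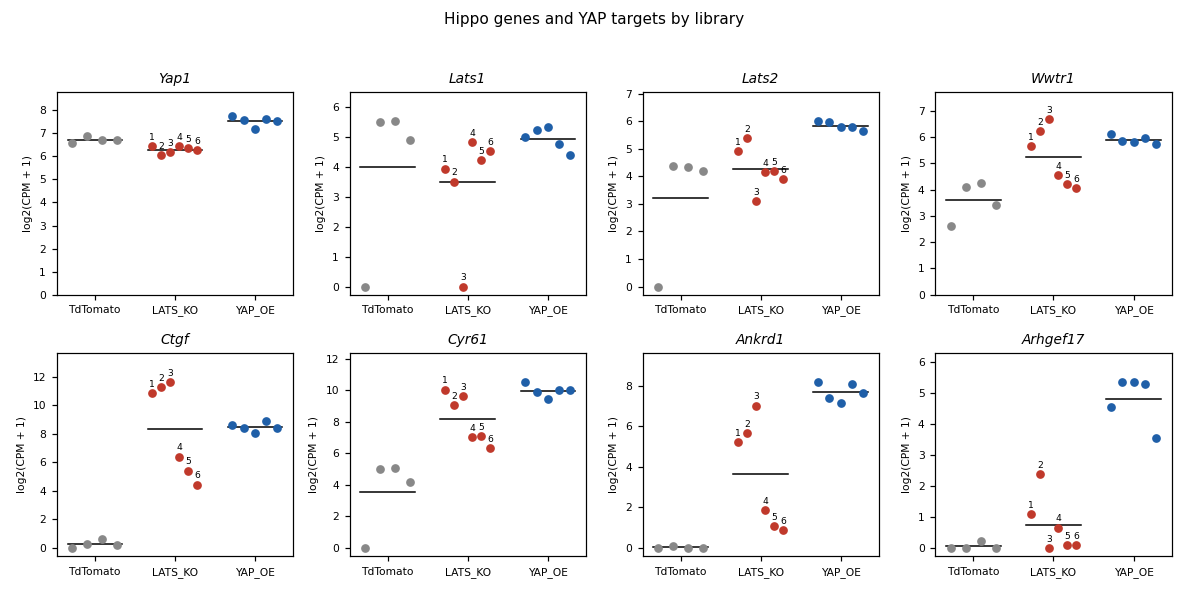
Expression of Hippo genes and YAP target genes as log2(CPM + 1), 1 point per library and horizontal lines at group means of the log values; numbers mark the LATS_KO libraries. Yap1, Lats2, Ankrd1 and Arhgef17 separate the groups, while for Ctgf LATS_KO 1 to 3 lie above all YAP_OE libraries and LATS_KO 4 to 6 below.

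The direct targets of YAP and TEAD were then examined. TEAD factors bind the letters GGAATG, so the 250 bases before the start of each gene in RefSeq (GRCm38.p6) were searched for GGAATG on both strands. Promoters of 3 genes are shown, Ankrd1 and Cyr61 as textbook targets and Col3a1 as a matrix gene that rose here, each 5′ to 3′ along the gene with every match in capitals (CATTCC is the same motif on the other strand).
Ankrd1 (chr19:36119845-36120094, minus strand): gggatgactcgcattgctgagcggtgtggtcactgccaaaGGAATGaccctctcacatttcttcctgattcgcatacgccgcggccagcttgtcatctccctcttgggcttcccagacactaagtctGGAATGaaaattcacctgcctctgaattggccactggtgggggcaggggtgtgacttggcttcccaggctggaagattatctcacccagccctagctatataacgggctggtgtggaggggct
Cyr61 (chr3:145649986-145650235, minus strand): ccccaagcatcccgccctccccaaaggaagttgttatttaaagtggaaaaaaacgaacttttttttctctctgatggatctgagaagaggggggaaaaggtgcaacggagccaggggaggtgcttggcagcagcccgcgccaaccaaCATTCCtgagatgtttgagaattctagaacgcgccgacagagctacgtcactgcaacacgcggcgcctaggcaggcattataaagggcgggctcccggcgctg
Col3a1 (chr1:45311288-45311537, plus strand): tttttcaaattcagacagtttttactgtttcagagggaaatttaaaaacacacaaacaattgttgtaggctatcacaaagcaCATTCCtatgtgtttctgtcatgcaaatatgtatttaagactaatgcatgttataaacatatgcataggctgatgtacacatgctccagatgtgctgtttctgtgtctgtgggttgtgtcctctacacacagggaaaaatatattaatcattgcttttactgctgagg
The motif begins 210 and 123 bases before the start of Ankrd1, 103 before that of Cyr61 and 168 before that of Col3a1. Of all 27025 genes with a promoter entry 14.36% held it in any entry, and of the genes tested 12.95% (1332 of 10283 matched). The shares were 13.85% for the called rises (9 of 65 matched) and 14.89% for the called falls (7 of 47 matched). Of the YAP/TEAD target list, 46.67% (7 of 15 matched) held it. A match is a description of these letters and not a binding site.

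Of 20 tested YAP/TEAD targets, 1 rose and 0 fell (median log2 difference 0.42, against -0.01 for all genes), and 2 rose without LATS_KO 3. Arhgef17, a guanine nucleotide exchange factor for small GTPases, rose: it was at 22.4, 40.0, 39.8, 38.1 and 10.8 CPM in YAP_OE 1 to 5, 1.13, 4.24, 0, 0.570, 0.0669 and 0.0596 CPM in LATS_KO 1 to 6 and at most 0.158 CPM in TdTomato. YAP_OE lay above all other libraries, with LATS_KO 2 next. The log2 rise was 4.80 ± 1.01 (SE; edgeR adjusted p = 0.0465). It was called in 2 of the 11 fits that leave out a library, being lost without LATS_KO 1, 4, 5 or 6 or YAP_OE 1, 2, 3, 4 or 5 (adjusted p up to 0.142), and reached 6.23 without LATS_KO 2. It was also lost with the unstranded counts (3.10, adjusted p = 0.193) and with group weights in limma voom (adjusted p = 0.0552).

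The classical targets spread widely among the LATS_KO libraries and did not pass. Ctgf, a secreted matricellular protein, was at 1808, 2471, 3109.9, 82.7, 41.4 and 20.4 CPM in LATS_KO 1 to 6 and 391.6, 335, 266, 464 and 331 CPM in YAP_OE 1 to 5, while TdTomato did not exceed 0.552 CPM. YAP_OE lay between LATS_KO 1, 2 and 3 above and LATS_KO 4, 5 and 6 below (log2 difference -1.81 ± 1.10, edgeR adjusted p = 0.437; -1.31 without LATS_KO 3). Its sign turned positive with group weights (0.15) and with library weights (2.40) in limma voom. Cyr61, its close relative, was at 1046, 536, 783, 129.9, 132 and 79.1 CPM in LATS_KO 1 to 6. It had 1447, 941, 699.7, 1039 and 1011 CPM in YAP_OE 1 to 5 (log2 difference 1.19 ± 0.62, edgeR adjusted p = 0.357). Here LATS_KO 1 and 3 lay within the YAP_OE range and LATS_KO 2 below it, and LATS_KO 4, 5 and 6 were lower and still above the highest TdTomato value of 32.6 CPM. Ankrd1, a nuclear ankyrin-repeat protein, was at 288, 167, 141, 272 and 197 CPM in YAP_OE 1 to 5 and 36.6, 50.04, 129, 2.63, 1.07 and 0.834 CPM in LATS_KO 1 to 6, without overlap (log2 difference 2.54 ± 1.07, edgeR adjusted p = 0.258; 3.54 and 0.07 without LATS_KO 3). With group weights in limma voom Ankrd1 passed (4.26, adjusted p = 0.0266). The receptor tyrosine kinase Axl was highest in LATS_KO 2 (10.2, 111, 4.74, 42.1, 25.1 and 14.1 CPM in LATS_KO 1 to 6, 18.1 to 37.0 CPM in YAP_OE), and without that library its log2 difference turned from -0.36 to 0.49. Igfbp3, an insulin-like growth factor binding protein, was at 10.3, 93.6, 138, 2.02, 0.401 and 1.13 CPM in LATS_KO 1 to 6 and 4.12 to 6.63 CPM in YAP_OE (edgeR adjusted p = 0.257). Its log2 difference of -3.04 turned to 1.90 with library weights in limma voom.

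The 10 largest rises were chosen among called genes with a mean of at least 5 CPM and no overlap between the groups. H19 (chromosome 7, 142575529 to 142578143), an imprinted long noncoding RNA abundant in fetal liver, was at 13.4, 10.9, 14.0, 23.1 and 5.46 CPM in YAP_OE 1 to 5, at most 0.108 CPM in LATS_KO and at most 0.0556 CPM in TdTomato. All 6 LATS_KO libraries together held 6 H19 reads against 1882 in YAP_OE. H19 rose by 7.93 ± 0.76 on the log2 scale (edgeR adjusted p = 0.00198). Vldlr (chromosome 19, 27216484 to 27254231), a receptor for triglyceride-rich lipoproteins, was at 37.0, 33.6, 32.8, 39.6 and 22.4 CPM in YAP_OE 1 to 5 and 0.918, 0.855, 0, 0.482, 0.201 and 0.179 CPM in LATS_KO 1 to 6. Every YAP_OE library exceeded the highest LATS_KO library, and the log2 rise was 6.12 ± 0.60 (edgeR adjusted p = 0.00198). Sftpd, a collectin of mucosal defence, was at 239.9, 308, 220.2, 393 and 274 CPM in YAP_OE 1 to 5 and 8.32, 9.56, 12.3, 0.833, 1.00 and 0.179 CPM in LATS_KO 1 to 6. Sftpd rose by 5.75 ± 0.91 (edgeR adjusted p = 0.0122). LATS_KO 1, 2 and 3 were above LATS_KO 4, 5 and 6, and all were below YAP_OE. Slc5a1, the sodium-glucose cotransporter of gut and kidney, was at 11.5 to 24.2 CPM in YAP_OE against 0 to 1.10 CPM in LATS_KO. Slc5a1 rose by 4.77 ± 0.63 (edgeR adjusted p = 0.00472). These 4 calls held without any single library.

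Rnaset2b, which encodes an acid ribonuclease, differed from the other rises in its background. It was at 14.1, 13.9, 13.1, 15.6 and 16.1 CPM in YAP_OE 1 to 5, 0.108, 0.519, 0, 0.789, 1.61 and 0.417 CPM in LATS_KO 1 to 6 and 33.7, 26.6, 25.5 and 31.5 CPM in TdTomato 1 to 4, so LATS_KO was the low group and TdTomato the high one. The log2 difference was 4.63 ± 0.72 (edgeR adjusted p = 0.011). The gene has a near-identical copy, Rnaset2a, and the files tally reads of several origins apart from the genes, so its level is uncertain.

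**Figure D3:**
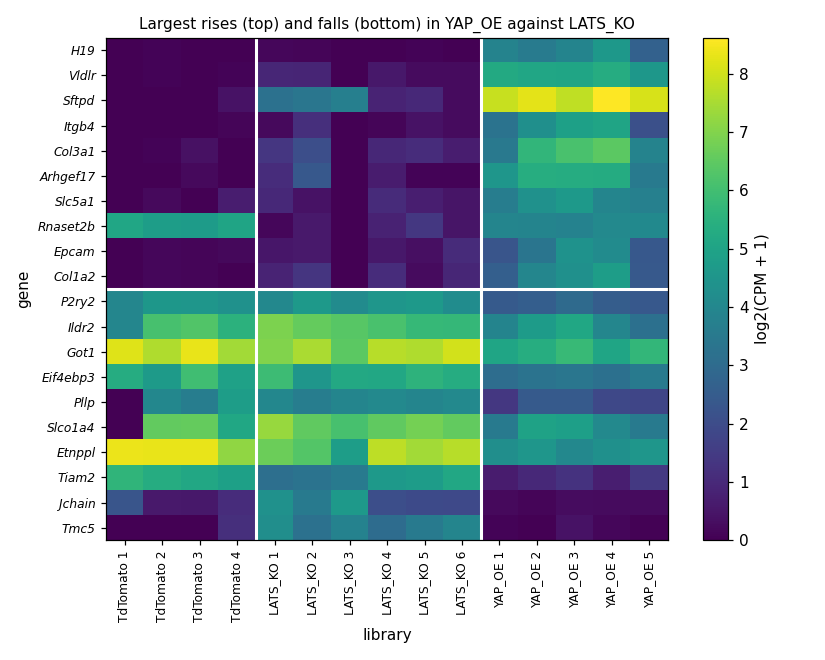
Log2(CPM + 1) of the 10 largest rises (above the white line) and 10 largest falls (below it) in each of the 15 libraries, dark for low and yellow for high. Among the rises Rnaset2b alone is at 25.5 to 33.7 CPM in TdTomato, where the others do not exceed 0.626 CPM; the separation of YAP_OE from LATS_KO was part of the choice.

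The collagen genes Col3a1 and Col1a2 and the matrix gene Sparc rose in YAP_OE. Of 24 tested extracellular matrix genes, 3 rose and 0 fell, with a median log2 difference of 1.25 against -0.01 for all genes, and 6 rose without LATS_KO 3. Summed over the 27 listed genes, LATS_KO 1 and 2 were at 5887 and 7237 CPM, above every YAP_OE library (1784 to 4591 CPM). LATS_KO 3 was at 3612 CPM and LATS_KO 4, 5 and 6 at 1258 to 2180 CPM, so the sums overlapped. TdTomato gave 791 to 3323 CPM. Sparc (chromosome 11, 55394500 to 55423183), a collagen-binding matricellular protein, was at 137, 178, 236, 319 and 139 CPM in YAP_OE 1 to 5, 35.2, 51.1, 53.2, 35.3, 25.4 and 28.6 CPM in LATS_KO 1 to 6 and at most 4.56 CPM in TdTomato. The groups were apart, and the log2 rise was 2.40 ± 0.29 (edgeR adjusted p = 0.00367); with all 15 libraries in the fit its adjusted p was 0.0514. Col3a1 (chromosome 1, 45311538 to 45349706), the type III collagen chain, was at 10.1, 50.4, 70.2, 87.3 and 13.4 CPM in YAP_OE 1 to 5 and 1.57, 3.17, 0, 0.964, 1.14 and 0.596 CPM in LATS_KO 1 to 6. Col3a1 rose by 5.15 ± 0.81 (edgeR adjusted p = 0.0118). Col1a2, a type I collagen chain, was at 5.14, 14.4, 19.3, 26.7 and 4.36 CPM in YAP_OE 1 to 5 and no more than 1.496 CPM in LATS_KO. Col1a2 rose by 4.15 ± 0.79 (edgeR adjusted p = 0.031). For both collagens YAP_OE 2, 3 and 4 were several times above YAP_OE 1 and 5. Group weights in limma voom ended both calls (adjusted p = 0.258 for Col3a1 and 0.171 for Col1a2), and Col1a2 was also lost without LATS_KO 1, 4, 5 or 6 or YAP_OE 1, 2, 3 or 4 (adjusted p up to 0.118). Col1a1, the partner chain of Col1a2, was at 4.92, 11.7, 17.4, 23.0 and 2.79 CPM in YAP_OE 1 to 5 and 0 to 6.11 CPM in LATS_KO, where LATS_KO 2 was highest. Col1a1 did not pass (log2 difference 2.90 ± 1.00, edgeR adjusted p = 0.177; 0.0463 without LATS_KO 2, and 0.0259 in DESeq2).

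Markers of stellate cells and fibroblasts, the collagen-making cells of liver, were examined beside the collagens. Of 17 tested markers 0 rose and 0 fell in edgeR, with a median log2 difference of 1.61. At an unadjusted p under 0.05, 8 were higher and 1 lower, against 956 and 1209 of all 12805 genes. DESeq2 called 7 and 1, against 574 and 523 of all 12805 genes, and 5 rose in edgeR without LATS_KO 3. The summed level of the 18 listed markers was 22.6 to 107 CPM in YAP_OE and 14.8 to 134 CPM in LATS_KO, so the sums overlapped. Lum, a matrix proteoglycan, was at 0.783, 2.69, 4.87, 5.92 and 1.45 CPM in YAP_OE 1 to 5 and 0 to 0.789 CPM in LATS_KO, and YAP_OE 1 alone lay within the LATS_KO range (edgeR adjusted p = 0.0825, and 0.0246 without LATS_KO 3). Pdgfrb, the defining receptor of these cells and chosen after its values were seen, was at 0.908, 3.55, 5.28, 5.67 and 0.471 CPM in YAP_OE 1 to 5. Pdgfrb was not called with all libraries. YAP_OE 2, 3 and 4 were the highest for Lum and Pdgfrb, as for the collagens. The part of these cells in the collagen rises was not tested.

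Of the genes of bile duct epithelium, Epcam rose. Of 14 tested cholangiocyte markers 1 rose and 0 fell, with a median log2 difference of 1.07. Epcam (chromosome 17, 87635979 to 87651129), an adhesion protein of duct and progenitor cells, was at 3.85, 9.24, 19.9, 16.7 and 4.16 CPM in YAP_OE 1 to 5, 0.432, 0.519, 0, 0.482, 0.268 and 1.07 CPM in LATS_KO 1 to 6 and at most 0.144 CPM in TdTomato. All YAP_OE libraries exceeded all others, YAP_OE 1 and 5 by the least, and the log2 rise was 4.49 ± 0.75 (edgeR adjusted p = 0.015). The call was lost without LATS_KO 4 or YAP_OE 3 or 4 (adjusted p up to 0.0655) and with group weights in limma voom (adjusted p = 0.0953). Spp1, the secreted protein osteopontin, was at 3747, 3654, 4678, 6049.8 and 5003 CPM in YAP_OE 1 to 5. It had 4203, 1771, 1224, 184, 80.4 and 115 CPM in LATS_KO 1 to 6 (log2 difference 1.87 ± 0.88, edgeR adjusted p = 0.308, and 0.038 with group weights in limma voom). LATS_KO 1 lay within the YAP_OE range, and LATS_KO 4, 5 and 6 were lower but above the TdTomato range of 17.0 to 37.6 CPM. Sox9, the transcription factor of duct cells, was at 159, 62.6, 47.3, 12.8, 9.97 and 9.95 CPM in LATS_KO 1 to 6 and 64.0 to 91.8 CPM in YAP_OE (edgeR adjusted p = 0.654). Krt19, a duct keratin, was at 0.0669 to 18.4 CPM in LATS_KO, highest in LATS_KO 2, and 3.14 to 8.06 CPM in YAP_OE (log2 difference 0.13 ± 0.98, edgeR adjusted p = 0.968). Its sign turned without LATS_KO 5, LATS_KO 6 or YAP_OE 4. Krt7, another duct keratin chosen after its values were seen, was at 4.54, 54.4, 32.0, 0.395, 0 and 0.238 CPM in LATS_KO 1 to 6 and 0.471 to 1.68 CPM in YAP_OE (edgeR adjusted p = 0.223). Summed over 18 markers the list was at 6162 to 9403 CPM in YAP_OE and 863 to 8407 CPM in LATS_KO, and whether duct cells were more numerous was not tested.

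Notch signalling, which directs duct fate in the developing liver, had 2 rises and 0 falls among 13 tested genes (median log2 difference 0.83), and 3 rises without LATS_KO 3. Hes1 (chromosome 16, 30064384 to 30067796), the repressor that Notch induces, was at 112, 74.1, 79.9, 103 and 133 CPM in YAP_OE 1 to 5 and 59.7, 33.9, 46.5, 21.3, 31.8 and 29.5 CPM in LATS_KO 1 to 6. Rbpj, the DNA-binding factor of the pathway, was at 19.9, 19.7, 22.4, 19.3 and 12.8 CPM in YAP_OE 1 to 5 and 7.62, 9.71, 4.19, 5.79, 8.76 and 7.44 CPM in LATS_KO 1 to 6, with a TdTomato range of 0 to 15.9 CPM that overlapped both groups. Neither gene overlapped between YAP_OE and LATS_KO, and they rose by 1.43 ± 0.26 (edgeR adjusted p = 0.0265) and 1.37 ± 0.26 (adjusted p = 0.031) on the log2 scale. Hes1 was lost without LATS_KO 4, 5 or 6 or YAP_OE 1, 3, 4 or 5 (adjusted p up to 0.0936). Rbpj was lost without LATS_KO 4, 5 or 6 or YAP_OE 1, 2, 3 or 4 (adjusted p up to 0.116), with all 15 libraries in the fit (0.416) and with group weights in limma voom (0.114). The receptor Notch1 was at 46.4, 73.6, 75.6, 49.7 and 30.3 CPM in YAP_OE 1 to 5 and 5.07 to 27.1 CPM in LATS_KO, without overlap, and missed the threshold (edgeR adjusted p = 0.0648). It passed without LATS_KO 3 (0.0325) and without LATS_KO 2 (0.0419), and in DESeq2 (0.00111).

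**Figure D4:**
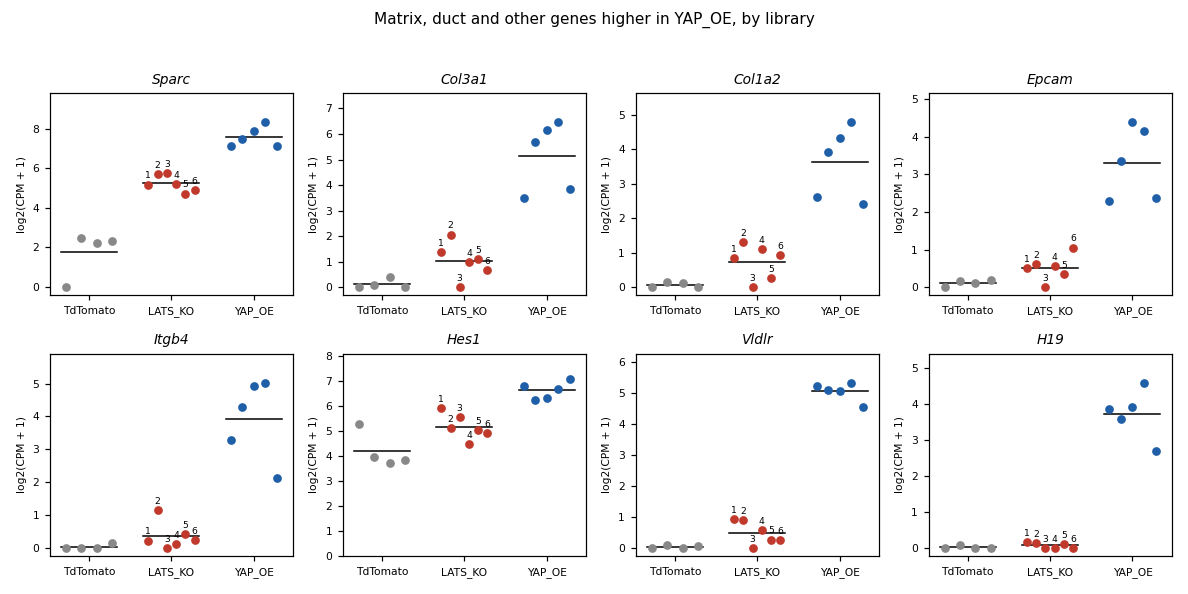
Log2(CPM + 1) of matrix, duct, Notch and other genes that rose in YAP_OE, 1 point per library, lines at group means of the log values and numbers on the LATS_KO libraries. All YAP_OE libraries lie above all LATS_KO libraries in each panel, and for Col3a1, Col1a2, Epcam and Itgb4 YAP_OE 1 and 5 are the lowest of their group.

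Adhesion and signalling genes added 3 rises. Itgb4, the integrin of hemidesmosomes, was at 8.77, 18.6, 29.0, 31.6 and 3.34 CPM in YAP_OE 1 to 5 and 0.162, 1.22, 0, 0.0877, 0.335 and 0.179 CPM in LATS_KO 1 to 6. Itgb4 rose by 5.64 ± 0.90 (edgeR adjusted p = 0.0122). LATS_KO 2 was the highest of its group, and the rise was 6.80 without it; group weights in limma voom gave an adjusted p of 0.141. Marcksl1, an actin-binding protein, was at 33.6, 34.4, 43.4, 55.9 and 37.2 CPM in YAP_OE 1 to 5, 8.37 to 20.4 CPM in LATS_KO and at most 1.00 CPM in TdTomato. It rose by 1.63 ± 0.25 (edgeR adjusted p = 0.011, and 0.118 with all 15 libraries in the fit). Inhba, the activin A subunit, was at 27.2, 29.0, 27.7, 27.9 and 38.8 CPM in YAP_OE 1 to 5 and 10.1 to 18.9 CPM in LATS_KO. Inhba rose by 0.98 ± 0.20 (edgeR adjusted p = 0.0377). It was lost without LATS_KO 4, 5 or 6 or YAP_OE 1, 2, 3, 4 or 5 (adjusted p up to 0.119), with all 15 libraries (0.116), with no filter (0.0560) and with group weights in limma voom (0.0510). Over the lists, 2 of 23 tested integrin and cytoskeleton genes and 1 of 15 TGF-beta and PDGF genes rose, and 0 fell in either list.

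Mitosis genes were in sum above TdTomato in both groups and held no call between them. Of 24 mitosis genes 0 rose and 0 fell in edgeR, 0 and 0 had an unadjusted p under 0.05, DESeq2 called 0 and 0, and the median log2 difference was -0.45. The 24 DNA replication genes gave 0 in each of these counts, with a median of 0.19. Mki67, the proliferation marker, was at 84.8, 215, 73.9, 29.9, 16.1 and 14.4 CPM in LATS_KO 1 to 6, 80.9, 33.2, 33.1, 19.3 and 46.3 CPM in YAP_OE 1 to 5 and 0.481 to 6.92 CPM in TdTomato. LATS_KO 2 was highest and LATS_KO 5 and 6 were below all YAP_OE libraries (log2 difference -0.77 ± 0.67, edgeR adjusted p = 0.611), and the sign turned with library weights in limma voom (0.44). Summed over the mitosis list, LATS_KO ranged from 182 to 1309.7 CPM and YAP_OE from 216 to 739 CPM, while TdTomato did not exceed 39.0 CPM.

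Ccnd1 and Cdkn1a, which gate entry into the cell cycle, separated the groups without passing edgeR's test on all libraries. Ccnd1, encoding cyclin D1, was at 1070.3, 704, 617, 900.0 and 652 CPM in YAP_OE 1 to 5, 334, 302, 278, 82.6, 87.8 and 50.3 CPM in LATS_KO 1 to 6 and 13.5 to 39.6 CPM in TdTomato. The groups did not overlap, and the log2 difference of 2.06 ± 0.49 had an edgeR adjusted p of 0.067, and of 0.0359 without LATS_KO 3. Ccnd1 also passed in DESeq2 (adjusted p = 0.000837) and with group weights in limma voom (0.0123). Cdkn1a, the inhibitor p21, was at 199.7, 237, 230.0, 316 and 167 CPM in YAP_OE 1 to 5 and 137, 117, 62.9, 9.07, 4.68 and 5.30 CPM in LATS_KO 1 to 6, also without overlap (log2 difference 2.04 ± 0.82, edgeR adjusted p = 0.24). Cdkn1a passed with group weights in limma voom (3.18, adjusted p = 0.0325). Of 12 tested G1 cyclins and inhibitors 0 passed with all libraries and 3 rose without LATS_KO 3. All 15 p53 target genes had a positive log2 difference (median 1.05, against -0.01 for all genes, of which 6294 of 12805 were positive). Of the 15, 0 passed in edgeR, 10 had an unadjusted p under 0.05, DESeq2 called 6, and 4 rose in edgeR without LATS_KO 3. Ccng1, a cyclin that p53 induces, was at 90.3, 102, 106, 136 and 82.9 CPM in YAP_OE 1 to 5 and 36.1 to 77.2 CPM in LATS_KO, without overlap (log2 difference 1.05 ± 0.23, edgeR adjusted p = 0.0524). It passed without LATS_KO 3 (0.0316), without LATS_KO 1 (0.0222) and without LATS_KO 2 (0.0463). Ccng1 also passed with all 15 libraries in the edgeR fit (adjusted p = 0.0305), in DESeq2 (0.00057) and with group weights in limma voom (0.0306).

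Fetal liver genes had 1 rise, H19, among 14 tested (median log2 difference 0.79). Igf2, the imprinted growth factor beside H19, was at 2.32, 7.82, 5.73, 9.20 and 1.81 CPM in YAP_OE 1 to 5 and 0.540, 0.977, 0, 0.0438, 0 and 0 CPM in LATS_KO 1 to 6, without overlap, and at 0 in every TdTomato library. Its difference of 4.22 ± 1.10 missed the threshold (edgeR adjusted p = 0.0951) and passed without LATS_KO 3 (0.0395) and without LATS_KO 2 (0.0416). Afp, alpha-fetoprotein, was at 20.5, 27.8, 48.9, 0.789, 1.40 and 2.08 CPM in LATS_KO 1 to 6 and 53.4, 18.3, 12.97, 47.1 and 26.2 CPM in YAP_OE 1 to 5. Gpc3, a cell-surface proteoglycan of fetal and tumour liver, gave 736, 1548, 1445, 23.5, 12.4 and 5.66 CPM and 1462, 849, 603, 1165 and 1134 CPM in that order. For both, LATS_KO 4, 5 and 6 were below all YAP_OE libraries and LATS_KO 1, 2 and 3 were within or above their range (edgeR adjusted p = 0.672 and 0.807).

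The 10 largest falls were named by the same rule. Tmc5, a transmembrane channel-like protein, was at 18.0, 8.36, 13.001, 7.37, 10.5 and 14.1 CPM in LATS_KO 1 to 6, at most 0.337 CPM in YAP_OE and 0 to 1.25 CPM in TdTomato. LATS_KO lay above both other groups, and the log2 difference was -6.70 ± 0.78 (edgeR adjusted p = 0.00367; -7.67 without YAP_OE 3). Tiam2, an activator of Rac, was at 7.94, 8.67, 10.4, 24.0, 25.96 and 35.3 CPM in LATS_KO 1 to 6, 0.595, 1.01, 1.42, 0.642 and 1.73 CPM in YAP_OE 1 to 5 and 28.9 to 48.9 CPM in TdTomato, so YAP_OE lay below all other libraries. It fell by 4.11 on the log2 scale (SE 0.55; edgeR adjusted p = 0.00481). P2ry2, a receptor for extracellular ATP, was at 4.16 to 6.90 CPM in YAP_OE, 15.3 to 24.0 CPM in LATS_KO and 14.5 to 22.5 CPM in TdTomato (log2 difference -1.97 ± 0.24, edgeR adjusted p = 0.00367). Eif4ebp3, a repressor of cap-dependent translation, was at 7.39 to 10.5 CPM in YAP_OE and 22.2 to 59.1 CPM in LATS_KO (-2.16 ± 0.24, adjusted p = 0.00367). For both genes LATS_KO overlapped TdTomato, and YAP_OE lay below every TdTomato library. Pllp, a myelin-type membrane protein, was at 1.66 to 4.42 CPM in YAP_OE and 11.6 to 15.7 CPM in LATS_KO (-2.21 ± 0.32, edgeR adjusted p = 0.00646, and 0.212 with all 15 libraries in the fit). Ildr2, a membrane protein of hepatocytes, was at 13.9, 25.6, 34.5, 14.4 and 8.13 CPM in YAP_OE 1 to 5 and 52.2 to 120.2 CPM in LATS_KO (-2.03 ± 0.38, edgeR adjusted p = 0.0267). Ildr2 was lost without LATS_KO 4 or YAP_OE 1, 2 or 4 (adjusted p up to 0.111).

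Glucose and amino acid metabolism held further falls, Got1 and Slc37a4 among them. Of 15 tested gluconeogenesis and glycogen genes 0 rose and 2 fell (median log2 difference -1.04), and 6 fell without LATS_KO 3. Got1 (chromosome 19, 43499752 to 43524605), the cytosolic aspartate aminotransferase, was at 32.7, 40.0, 55.4, 33.0 and 51.4 CPM in YAP_OE 1 to 5, 127, 184, 87.4, 206, 194 and 263 CPM in LATS_KO 1 to 6 and 171 to 325 CPM in TdTomato. Every YAP_OE library was below every other library, and the log2 fall was -2.06 ± 0.29 (edgeR adjusted p = 0.00618), which held without any single library. Slc37a4, the glucose-6-phosphate transporter of the endoplasmic reticulum, was at 88.9, 73.0, 67.3, 69.4 and 98.5 CPM in YAP_OE 1 to 5. It had 200.5, 114, 118, 269, 304 and 230.2 CPM in LATS_KO 1 to 6 (-1.37 ± 0.28, edgeR adjusted p = 0.0424). It was called in 2 of the 11 fits that leave out a library, being lost without LATS_KO 1, 4, 5 or 6 or YAP_OE 1, 2, 3, 4 or 5 (adjusted p up to 0.16), and was lost with no filter (0.0503). Pck1, the committed enzyme of gluconeogenesis, was at 176, 390.2, 724, 435 and 551 CPM in YAP_OE 1 to 5 and 2506, 1536, 406, 4539, 6209 and 3628 CPM in LATS_KO 1 to 6. LATS_KO 3 lay within the YAP_OE range and the other LATS_KO libraries above it (log2 difference -2.78 ± 0.62, edgeR adjusted p = 0.0574). Pck1 passed without LATS_KO 3 (-3.02, edgeR adjusted p = 0.00713) and without LATS_KO 2 (0.0439). It also passed with all 15 libraries in the fit (0.0314) and in DESeq2 (adjusted p = 9.65e-05). Etnppl, which breaks down phosphoethanolamine, was at 18.1, 22.1, 15.2, 19.04 and 22.3 CPM in YAP_OE 1 to 5, 102, 79.5, 26.9, 215, 170.4 and 204 CPM in LATS_KO 1 to 6 and 147 to 332 CPM in TdTomato (-2.78 ± 0.46, edgeR adjusted p = 0.015). Etnppl was lost without YAP_OE 1, 2, 3 or 4 (adjusted p up to 0.0655).

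Urea cycle and amino acid genes were lower in YAP_OE by median, and the number that passed differed with the libraries and the test used. Among 19 tested genes 0 fell and 0 rose in edgeR, 16 were lower at an unadjusted p under 0.05, DESeq2 called 9 lower, and 10 fell in edgeR without LATS_KO 3 (medians -1.50 and -1.68). Summed over the list, LATS_KO 1, 2 and 3 were at 8277, 5253 and 3969.8 CPM and LATS_KO 4, 5 and 6 at 17171 to 17626 CPM, against 3886 to 6319.5 CPM in YAP_OE. Of 13 periportal genes, those of hepatocytes near the portal vein, 0 fell with all libraries, 9 were lower at an unadjusted p under 0.05, DESeq2 called 7 lower and 9 fell without LATS_KO 3 (median -1.74). Arg1, the arginase of the urea cycle, was at 841, 357, 313, 1435, 1512 and 1489 CPM in LATS_KO 1 to 6, 216, 333, 356, 234 and 341 CPM in YAP_OE 1 to 5 and 1362 to 1801 CPM in TdTomato. LATS_KO 3 was inside the YAP_OE range, LATS_KO 2 just above it, and LATS_KO 4, 5 and 6 near TdTomato (log2 difference -1.74 ± 0.45, edgeR adjusted p = 0.0894). Arg1 passed in edgeR without LATS_KO 3 (adjusted p = 0.0197) and without LATS_KO 2 (0.0415), and in DESeq2 (0.00317). Sds, serine dehydratase, was at 236, 93.0, 14.8, 561, 505 and 616 CPM in LATS_KO 1 to 6 and 32.9, 47.8, 41.8, 47.0 and 70.5 CPM in YAP_OE 1 to 5, with LATS_KO 3 below every YAP_OE library (edgeR adjusted p = 0.0959). Sds passed in edgeR without LATS_KO 3 (adjusted p = 0.00739) and in DESeq2 (0.00132). Ahcy, the S-adenosylhomocysteine hydrolase of one-carbon metabolism, fell: it was at 303, 372, 337, 238 and 344 CPM in YAP_OE 1 to 5. It had 689.8, 567, 565, 1289, 1379.6 and 951 CPM in LATS_KO 1 to 6 (-1.51 ± 0.30, edgeR adjusted p = 0.0359). It was lost without LATS_KO 4, 5 or 6 or YAP_OE 1, 2, 3, 4 or 5 (adjusted p up to 0.142).

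**Figure D5:**
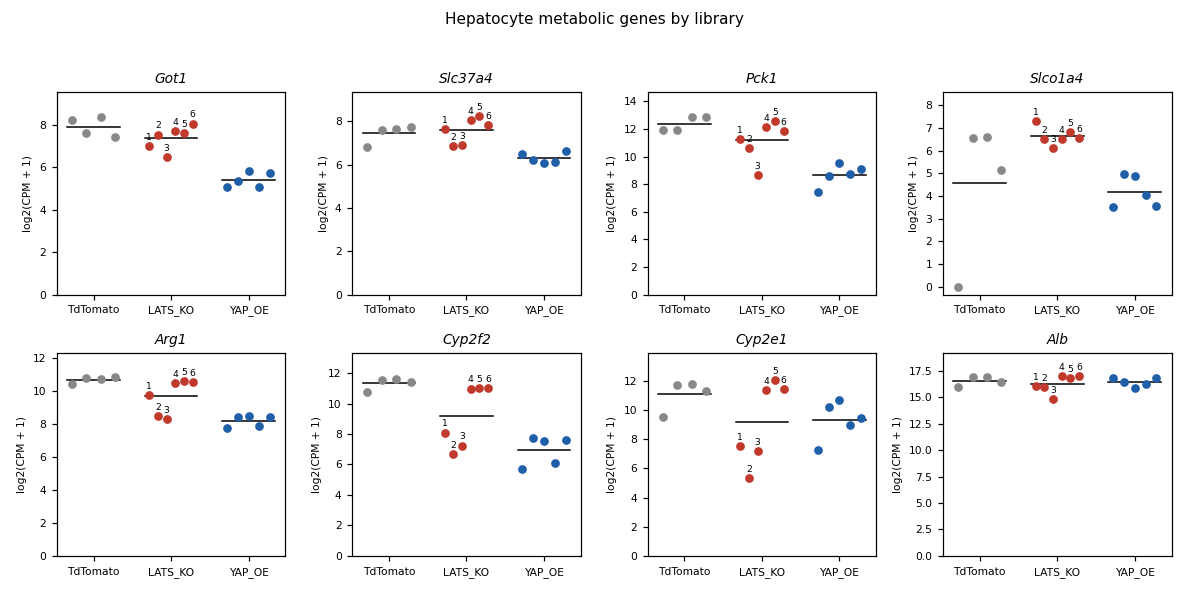
Log2(CPM + 1) of hepatocyte metabolic genes, 1 point per library, lines at group means of the log values and numbers on the LATS_KO libraries. Got1, Slc37a4 and Slco1a4 separate YAP_OE from all LATS_KO libraries, while for Pck1, Arg1, Cyp2f2 and Cyp2e1 LATS_KO 3 lies within or below the YAP_OE range.

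Cytochrome P450 genes, which oxidise drugs, steroids and fatty acids, held no call with all libraries. Of 20 tested, 0 fell and 0 rose in edgeR, 7 were lower at an unadjusted p under 0.05, DESeq2 called 6 lower, and 4 fell without LATS_KO 3 (median -1.88). Summed over the list, LATS_KO 1, 2 and 3 were at 2293, 880.2 and 1122 CPM, inside the YAP_OE range of 857 to 4156 CPM, and LATS_KO 4, 5 and 6 at 10353 to 13144 CPM, against 5785 to 12930 CPM in TdTomato. Cyp2f2, a periportal member, was at 273, 100.2, 151, 2026, 2057 and 2083 CPM in LATS_KO 1 to 6, 51.3, 217, 184, 68.2 and 196 CPM in YAP_OE 1 to 5 and 1697 to 3090.1 CPM in TdTomato. LATS_KO 2 and 3 lay within the YAP_OE range, LATS_KO 1 just above it, and LATS_KO 4, 5 and 6 within the TdTomato range (log2 difference -2.96 ± 0.88, edgeR adjusted p = 0.131). Cyp2f2 passed in edgeR without LATS_KO 3 (adjusted p = 0.0452) and in DESeq2 (0.00419). Cyp2e1, a pericentral member, was at 186, 40.4, 143, 2695, 4373 and 2844 CPM in LATS_KO 1 to 6 and 153, 1171, 1696, 513 and 713 CPM in YAP_OE 1 to 5, with LATS_KO libraries on both sides (edgeR adjusted p = 0.679). Its log2 difference of -1.01 turned to 0.16 with group weights in limma voom. Glul, the pericentral glutamine synthetase, gave 43.6 to 301 CPM in LATS_KO and 46.7 to 181 CPM in YAP_OE (edgeR adjusted p = 0.808).

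Bile acid and lipid genes held 3 calls. Slco1a4, an organic anion transporter, was at 10.4, 30.1, 28.5, 15.5 and 10.8 CPM in YAP_OE 1 to 5 and 157, 90.1, 68.5, 90.5, 111 and 92.2 CPM in LATS_KO 1 to 6, without overlap. Slco1a4 fell by 2.42 on the log2 scale (SE 0.35; edgeR adjusted p = 0.00646, and 0.191 with all 15 libraries in the fit, where TdTomato 1 is listed at 0). It was the only called gene among 19 of bile acid synthesis and transport, of which 2 fell without LATS_KO 3. Cyp7a1, the rate-limiting enzyme of bile acid synthesis, was at 3.24, 0.305, 0, 21.3, 39.9 and 27.3 CPM in LATS_KO 1 to 6 and 12.9, 66.6, 124, 29.4 and 17.5 CPM in YAP_OE 1 to 5. Cyp7a1 did not pass (log2 difference 1.70 ± 1.12, edgeR adjusted p = 0.477). Among 16 lipid uptake and droplet genes Vldlr rose and Plin5, a lipid droplet coat protein, fell; 1 rose and 3 fell without LATS_KO 3. Plin5 was at 13.4, 15.7, 14.0, 11.4 and 11.4 CPM in YAP_OE 1 to 5 and 64.2, 19.1, 27.5, 33.4, 37.2 and 29.4 CPM in LATS_KO 1 to 6, without overlap (-1.41 ± 0.28, edgeR adjusted p = 0.0359). Plin5 was lost without LATS_KO 4, 5 or 6 or YAP_OE 1, 2, 3, 4 or 5 (adjusted p up to 0.139). Of 19 fatty acid oxidation genes 0 fell and 0 rose (median -0.76; 7 lower and 1 higher at an unadjusted p under 0.05), while of 21 cholesterol genes 0 rose and 0 fell (1 higher and 0 lower at an unadjusted p under 0.05). Without LATS_KO 3, 3 fatty acid oxidation genes fell (Cyp4a14, Cyp4a10 and Cpt2) and 1 rose, Fgf21, a fasting hormone of liver (3.08, edgeR adjusted p = 0.0313), while cholesterol genes gave 0 and 0. DESeq2 called 2 fatty acid oxidation genes lower and 1 higher, and 0 cholesterol genes higher and 0 lower.

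Of stress and defence genes, Osgin1 rose and Lbp fell. Osgin1, an oxidative stress gene that NRF2 induces, was at 887, 1009, 659.8, 795 and 939 CPM in YAP_OE 1 to 5, 439, 236, 339, 196, 233 and 189 CPM in LATS_KO 1 to 6 and 112 to 210.1 CPM in TdTomato. The groups were apart, and it rose by 1.66 ± 0.26 (edgeR adjusted p = 0.0118), the only called rise among 15 NRF2 targets, of which 2 rose without LATS_KO 3. Lbp, the endotoxin-binding acute phase protein, was at 68.6, 83.7, 73.2, 71.2 and 68.7 CPM in YAP_OE 1 to 5 and 139, 109.5, 92.1, 152, 121 and 132 CPM in LATS_KO 1 to 6, the only called fall among 18 acute phase genes, of which 3 fell without LATS_KO 3 (-0.76 ± 0.16, edgeR adjusted p = 0.0488). It was called in 2 of the 11 fits that leave out a library, being lost without LATS_KO 1, 4, 5 or 6 or YAP_OE 1, 2, 3, 4 or 5 (adjusted p up to 0.172). It was lost as well with all 15 libraries in the fit (0.335), no filter (0.0740) and the unstranded counts (0.0547). Of 22 interferon-induced genes 0 rose and 0 fell with all libraries, 5 were higher at an unadjusted p under 0.05, DESeq2 called 2 higher, and 3 rose without LATS_KO 3. Ifit1, an RNA-binding antiviral protein, was among these (25.9 to 39.3 CPM in YAP_OE and 3.75 to 21.3 CPM in LATS_KO; adjusted p = 0.0196).

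The study's title concerns inflammatory monocytes, so leukocyte genes were set side by side. Of 8 tested monocyte markers, 18 macrophage, 12 Kupffer cell, 6 neutrophil and 12 pan-leukocyte genes, 0 rose and 0 fell in edgeR. At an unadjusted p under 0.05 these lists had 1, 0, 1, 1 and 2 lower genes in that order and 0 higher ones. Of all 12805 genes, 1209 were lower and 956 higher at that level. Without LATS_KO 3, 1 pan-leukocyte gene fell in edgeR, the actin-bundling Lcp1 (-1.06, adjusted p = 0.0215; 0.151 with it), and 0 genes of the other 4 lists passed. DESeq2 called 1 monocyte marker lower and 0 genes of the other lists in either direction. Ccr2, the receptor that brings monocytes from blood, was at 3.84, 21.7, 0, 4.38, 1.34 and 0.596 CPM in LATS_KO 1 to 6, 2.54, 3.44, 3.56, 5.03 and 5.81 CPM in YAP_OE 1 to 5 and no more than 0.0788 CPM in TdTomato. LATS_KO 2 was highest, and the log2 difference of -0.39 ± 1.01 (edgeR adjusted p = 0.895) turned to 0.99 without it. Ccl2, the ligand of Ccr2, was at 40.9, 35.3, 95.7, 3.81, 0.870 and 0.834 CPM in LATS_KO 1 to 6 and 15.6, 6.02, 12.2, 12.3 and 18.3 CPM in YAP_OE 1 to 5, with LATS_KO 1, 2 and 3 above and LATS_KO 4, 5 and 6 below (edgeR adjusted p = 0.6). Its sign turned with library weights in limma voom (2.06). Csf1r, the receptor for the macrophage growth factor, was at 93.9, 292, 87.4, 79.8, 59.9 and 29.1 CPM in LATS_KO 1 to 6 and 165 to 229 CPM in YAP_OE, above the TdTomato maximum of 2.84 CPM in both groups. LATS_KO 2 alone lay above YAP_OE and the other LATS_KO libraries below (edgeR adjusted p = 0.335, and 0.0291 without LATS_KO 2).

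Macrophage genes differed among LATS_KO libraries as well. Adgre1, the macrophage antigen F4/80, was at 3.57, 32.0, 0, 24.9, 20.6 and 7.09 CPM in LATS_KO 1 to 6 and 11.7 to 22.7 CPM in YAP_OE. Clec4f, the defining Kupffer cell lectin, gave 6.97, 95.01, 8.59, 147, 125 and 52.9 CPM in LATS_KO 1 to 6 and 50.4 to 146 CPM in YAP_OE. Their log2 differences were 0.19 ± 0.84 and 0.16 ± 0.70 (edgeR adjusted p = 0.944 and 0.942), and both turned negative without LATS_KO 3, at -0.07 and -0.07, and without LATS_KO 1; Clec4f did so without YAP_OE 5 too. Ptprc, the common leukocyte antigen CD45, gave 6.27, 29.0, 2.64, 13.2, 10.4 and 4.76 CPM in LATS_KO 1 to 6 and 6.83 to 14.0 CPM in YAP_OE, with a sign that turned without LATS_KO 2 or YAP_OE 1. Jchain, which joins secreted antibodies and marks plasma cells, was the only gene of these leukocyte lists that was called with all libraries. It was at 19.4, 10.6, 23.7, 3.20, 2.81 and 2.74 CPM in LATS_KO 1 to 6, 0.157, 0.0748, 0.225, 0.178 and 0.196 CPM in YAP_OE 1 to 5 and 0.473 to 3.84 CPM in TdTomato. Jchain fell by 5.92 on the log2 scale (SE 0.83; edgeR adjusted p = 0.00577). The B cell list summed to 3.35 to 23.7 CPM in LATS_KO and 0.972 to 2.03 CPM in YAP_OE, and Ms4a1 was at 0 in all YAP_OE libraries. The part of plasma cells in the Jchain difference was not tested. No T or natural killer cell marker passed the filter on low counts, and their sum was at most 4.49 CPM in LATS_KO and 1.49 CPM in YAP_OE.

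Endothelial genes held no call with all libraries: of 21 tested, 0 rose and 0 fell in edgeR, 0 and 0 had an unadjusted p under 0.05, and DESeq2 called 0 and 0. Lyve1, the hyaluronan receptor of sinusoids, was at 6.64, 12.9, 0, 7.41, 10.3 and 9.83 CPM in LATS_KO 1 to 6 and 2.51, 1.98, 1.80, 3.00 and 3.53 CPM in YAP_OE 1 to 5. All LATS_KO libraries but LATS_KO 3, listed at 0, were above YAP_OE, and the gene passed without that library (-1.87, edgeR adjusted p = 0.00498; 0.332 with it). Plvap, a protein of capillary diaphragms, lay the other way at 7.39, 11.8, 11.5, 18.3 and 8.76 CPM in YAP_OE 1 to 5 and 3.73, 5.92, 0, 6.23, 4.21 and 6.07 CPM in LATS_KO 1 to 6 (edgeR adjusted p = 0.035 without LATS_KO 3 and 0.336 with it). Pecam1, the pan-endothelial adhesion protein CD31, was at 9.17 to 20.8 CPM in LATS_KO and 10.02 to 16.4 CPM in YAP_OE (log2 difference -0.01 ± 0.27, 95% interval -0.62 to 0.59), with a sign that changed with RLE scaling (0.07). Of the hepatocyte identity factors, Hnf4a was at 340.0 to 683 CPM in LATS_KO and 297 to 487 CPM in YAP_OE (log2 difference -0.33 ± 0.25, 95% interval -0.89 to 0.22). With all libraries 0 of 18 such factors fell and 0 rose, with 5 lower and 2 higher at an unadjusted p under 0.05. Without LATS_KO 3, 3 of these factors fell and 0 rose. Respiratory chain subunits were lower by sign in all 20 tested genes (median -0.79). With all libraries 0 fell, 13 were lower at an unadjusted p under 0.05 and 4 fell without LATS_KO 3. Ndufs1 of complex I was among these (66.9 to 87.2 CPM in YAP_OE and 87.2 to 179.8 CPM in LATS_KO; -0.89, edgeR adjusted p = 0.037, and 0.0496 without LATS_KO 2).

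The other lists held no call with all libraries in edgeR. At an unadjusted p under 0.05, 956 of all 12805 genes were higher and 1209 lower. Immediate early genes of the AP-1 family had 5 of 14 members higher at that level (median log2 difference 0.53), and glycolysis genes had 5 of 18 lower (median -0.60). Secreted hepatocyte proteins had 3 of 18 lower (median -0.51) and growth hormone and IGF genes 4 of 16 lower and 1 higher (median -0.60). Pericentral genes, which mark hepatocytes near the central vein, had 0 of 16 past that level in either direction (median -0.16), as had the 18 cytosolic ribosomal proteins (median -0.09) and the 9 genes of dendritic cells and antigen presentation (median -0.03). Fatty acid synthesis, the unfolded protein response, chemokines, inflammatory cytokines and the EGF receptor family had at most 2 genes past it in either direction. Without LATS_KO 3 some of these lists held calls in edgeR. The glycolytic enzymes Pgk1 and Pgam1 fell by 0.86 and 0.72 on the log2 scale (adjusted p = 0.029 and 0.00692; 0.0611 and 0.135 with it). The tumour necrosis factor receptors Tnfrsf1a and Tnfrsf1b fell (adjusted p = 0.0451 and 0.0136), as did Errfi1, an inhibitor of the EGF receptor (0.0122), Herpud1 of the unfolded protein response (0.0474) and the fibrinogen chain Fga (0.0422). Igf2, of the growth hormone and IGF list, and Rnf43, a pericentral gene, rose (adjusted p = 0.0395 and 0.0265). DESeq2 on all libraries called 4 glycolysis, 2 cytokine, 2 EGF family, 2 growth hormone, 1 unfolded protein, 1 secreted protein and 1 fatty acid synthesis genes lower. It called 2 AP-1 family, 1 growth hormone, 1 unfolded protein and 1 chemokine genes higher.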

How the data were processed

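Directional libraries of poly(A) RNA from livers of mice were sequenced on a NovaSeq, per the labels' protocols. The authors deposited raw read counts per gene for each library, and the submitters' processing notes name FastQC, Trimmomatic, STAR and mm10 without versions; the annotation is not given in the sources used here. The extraction text in the labels describes mice of another design, and nothing was taken from it. Of the count columns the reverse-strand one was used, since the forward one held 0.966 to 1.99% of stranded gene counts. Reads assigned to no gene, 14.2 to 92.5% of a library, stayed out of library sizes.

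CPM values, counts scaled by effective library size, used TMM factors over all 15 libraries (edgeR 4.0.16, R 4.3.3). Genes passing filterByExpr were tested with edgeR's quasi-likelihood test on the 5 YAP_OE and 6 LATS_KO libraries (9 residual degrees of freedom), with Benjamini-Hochberg adjustment over all tested genes and a threshold of 0.05. Alternatives were DESeq2 1.42.0, limma 3.58.1 voom with library or group weights, RLE, upper-quartile or 11-library TMM scaling, no filter, a mean of 5 CPM, unstranded counts, all 15 libraries in the fit, the replicate number as a block, and leaving out each library. Libraries of a group were no copies: the lowest chi-square per degree of freedom between 2 of them was 26.3.

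Named genes were the manipulated genes, a fixed set of 26, up to 3 members of each of 50 lists (826 symbols, 14 without an entry) ranked on adjusted p. They also took in the 10 largest rises and 10 largest falls of called genes with a mean of at least 5 CPM and no overlap. Gm-numbered, Riken, mitochondrial, haemoglobin, immunoglobulin, T cell receptor and Y-linked genes and Xist were passed over, and a few other genes, though fitted, are not reported here. The members and lists were chosen with earlier results of these data known. On simulated counts for this comparison, 200 of 12805 genes being changed, the test recovered 0% of 2-fold, 44% of 4-fold, 76% of 8-fold and 84% of 16-fold changes, with 5 false calls. Coordinates are from GENCODE M21 (GRCm38) by gene identifier, and promoters from RefSeq (GRCm38.p6) by symbol. Intervals of counts pool the reads of each group, so they cover counting error only and leave out the spread between libraries. The reads also carry no molecular identifiers.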

Additional observations from a re-analysis of the deposited data

Results flagged for a closer look

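In 27 of the 366 sets of 5 or 6 library values of the named genes, 1 library's distance to its nearest neighbour exceeded Dixon's 95% critical value for the range of its group; chance gives about 1 such set in 20. LATS_KO 2 was the highest library in 11 of them. The explanations for these values were not tested. Of leukocyte genes LATS_KO 2 had Ccr2 at 21.7 CPM (nearest 4.38), Csf1r at 292 CPM (nearest 93.9), Marco at 178 CPM (nearest 9.64), Mmp9 at 8.52 CPM (nearest 1.62) and Arhgdib at 32.8 CPM (nearest 11.9), each with the nearest library of its group in brackets. Of growth, duct, matrix and adhesion genes it had Axl at 111 CPM (nearest 42.1), Mki67 at 215 CPM (nearest 84.8), Krt19 at 18.4 CPM (nearest 3.42), Col1a1 at 6.11 CPM (nearest 1.45), Arhgef17 at 4.24 CPM (nearest 1.13) and Itgb4 at 1.22 CPM (nearest 0.335).

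LATS_KO 3, the library with most reads unmapped, was highest for Lipe at 41.1 CPM (nearest 23.1), Erbb2 at 24.2 CPM (nearest 7.54) and Cela2a at 3.86 CPM (nearest 0.602). It was lowest for Rnf43 at 0 CPM (nearest 14.6) and Pgam1 at 25.7 CPM (nearest 44.3). Single values stood apart in LATS_KO 1 for Sox9 at 159 CPM (nearest 62.6), in LATS_KO 6 for Cldn7 at 0.655 CPM (nearest 0.0611) and in LATS_KO 5 for Hao2 at 0.134 CPM (nearest 0).

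Within YAP_OE, YAP_OE 5 was highest for Ctsc at 57.4 CPM (nearest 32.0), Plac8 at 10.3 CPM (nearest 4.03), Marco at 9.70 CPM (nearest 4.07), Inhba at 38.8 CPM (nearest 29.0) and Cycs at 45.9 CPM (nearest 28.8). YAP_OE 3 was highest for Cxcl14 at 21.0 CPM (nearest 7.63) and Aadat at 39.5 CPM (nearest 31.5), and YAP_OE 2 for Cyp4a14 at 1.35 CPM (nearest 0.487).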

How the results depend on the processing

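The direction of the 45 named genes called with all libraries held under all alternatives that tested them, and what moved was the number of calls. Against 87 rises and 60 falls, DESeq2 gave 574 and 523, voom with library weights 3752 and 3462, voom with group weights 266 and 91, and the fit with the replicate number as a block 0 and 0 (1246 genes at an unadjusted p under 0.05). Deviations of same-numbered libraries from their group means correlated at 0.315, -0.252, -0.212, -0.199 and 0.225 for numbers 1 to 5. The split among LATS_KO libraries and LATS_KO 3 enter these deviations, so they cannot decide whether equal numbers share a source. The labels do not tie equal numbers to a shared source. Library weights ran from 0.0474 for LATS_KO 3 to 6.00 for YAP_OE 2. Of the named genes that had not passed, 62 of 137 did so in the same direction with DESeq2 and 13 of 138 with group weights. The share of rises among calls was 59.2%, and 74.5% with group weights. RLE scaling (96 and 55), upper-quartile scaling (104 and 77), TMM over 11 libraries (87 and 61), no filter (70 and 41), a mean of 5 CPM (70 and 67), unstranded counts (79 and 56) and all 15 libraries (63 and 59, with 97 of the 147 genes shared) stayed within 1.5 times. Leaving out each library gave 34 to 469 rises and 13 to 470 falls. Both were highest without LATS_KO 3, then without LATS_KO 2 (146 and 149), and lowest without YAP_OE 4. After the data were seen, 2 alternatives were added without LATS_KO 3. Leaving out TdTomato 1 as well, with TdTomato 2 to 4 sharing the spread, gave 742 and 901, and voom with library weights 3814 and 3638.

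Named genes that had not passed changed sign as follows, as log2 differences under the alternative; the cause was not tested. With the block these were Axl 0.24, Glul 0.19, Cyp2e1 0.34, Ccr2 0.61, Ptprc 0.12 and Cela2a 0.32. With group weights they were Ctgf 0.15, Cyp2e1 0.16, Ccl2 0.29, Ccr2 1.14, Pecam1 0.016 and Cela2a 0.39, with RLE Pecam1 0.070, and with DESeq2 Pecam1 0.0042. With library weights they were Ctgf 2.40, Mki67 0.44, Alb -0.49, Ccl2 2.06, Ccr2 0.66, Adgre1 -0.30, Clec4f -0.70, Igfbp3 1.90, S100a8 0.30, H2-Ab1 -0.34, Cxcl14 1.57, Il33 0.25 and Cela2a 0.86, and the same without LATS_KO 3 gave Ctgf 2.46, Mki67 0.50, Alb -0.51, Ccl2 2.08, Ccr2 0.61, Adgre1 -0.33, Clec4f -0.74, Igfbp3 1.94, S100a8 0.30, H2-Ab1 -0.35, Cxcl14 1.63, Il33 0.25 and Cela2a 0.86. Without LATS_KO 3 and TdTomato 1 they were Alb -0.16, Adgre1 -0.074, Clec4f -0.073, Cd22 -0.044 and Cela2a 0.75. Leaving out 1 library at a time gave Axl -0.59 to 0.49, Krt19 -0.13 to 1.43, Alb -0.16 to 0.16, Ccr2 -0.66 to 0.99, Adgre1 -0.074 to 0.57, Clec4f -0.16 to 0.49, Pecam1 -0.10 to 0.16, Ptprc -0.30 to 0.47, Cd22 -0.073 to 0.52 and Cela2a -0.84 to 0.75. By depth alone, a level of 0 in a library allows up to 0.331 CPM in LATS_KO, the bound of LATS_KO 3, and 0.118 CPM in YAP_OE. LATS_KO 3 was also at 0 for genes well above this bound in the other LATS_KO libraries. For Rnf43 the nearest of them was at 14.6 CPM, so the bound does not cover the zeros of LATS_KO 3. In simulated counts, 2-fold changes were not recovered.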

Other observations

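Further called genes, chosen after their values were seen, lay outside the lists above. Fgfr3, a receptor for fibroblast growth factors, was at 145, 142, 110.5, 164 and 82.0 CPM in YAP_OE 1 to 5 and 33.98, 32.3, 49.8, 35.9, 26.6 and 30.8 CPM in LATS_KO 1 to 6 (log2 difference 1.88 ± 0.22, edgeR adjusted p = 0.00367). Fgfr2, another such receptor, was at 161, 155, 136, 158 and 126 CPM in YAP_OE 1 to 5 and 109.98, 84.2, 70.3, 81.0, 60.9 and 62.9 CPM in LATS_KO 1 to 6 (0.91 ± 0.18, edgeR adjusted p = 0.0373), and was lost without LATS_KO 4, 5 or 6 or YAP_OE 1, 2, 3, 4 or 5 (adjusted p up to 0.138), with all 15 libraries in the fit (0.109) and with no filter (0.0552). Klf9 and Tsc22d3, both genes that glucocorticoids induce, were at 39.9 to 58.0 and 20.7 to 56.4 CPM in YAP_OE and 103 to 178 and 76.1 to 129.9 CPM in LATS_KO (-1.48 ± 0.20 and -1.63 ± 0.27, edgeR adjusted p = 0.00481 and 0.0142). Tsc22d3 was lost without YAP_OE 2 (adjusted p up to 0.0637).

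Aadat, an aminotransferase of lysine and kynurenine, was at 30.7 to 39.5 CPM in YAP_OE and 77.5 to 185 CPM in LATS_KO (-1.93 ± 0.24, edgeR adjusted p = 0.00367). Aass, the first enzyme of lysine breakdown, was at 64.2 to 116 CPM in YAP_OE and 108 to 362 CPM in LATS_KO (-1.61 ± 0.34, edgeR adjusted p = 0.0488), and was lost without LATS_KO 1, 4, 5 or 6 or YAP_OE 1, 2, 3, 4 or 5 (adjusted p up to 0.172), with no filter (0.0537) and with unstranded counts (0.0523). Bbox1, the last enzyme of carnitine synthesis, was at 27.3 to 37.6 CPM in YAP_OE and 44.0 to 146 CPM in LATS_KO (-1.46 ± 0.29, edgeR adjusted p = 0.034), and was lost without LATS_KO 4, 5 or 6 or YAP_OE 1, 2, 3, 4 or 5 (adjusted p up to 0.133). Hao2, a peroxisomal hydroxyacid oxidase, had 1140 reads in YAP_OE and 2 in LATS_KO, a ratio of 472 after scaling with a 95% counting interval of 130.3 to 3899. It was at 9.08, 13.01, 3.60, 4.78 and 10.7 CPM in YAP_OE 1 to 5 and 0 to 0.0556 CPM in TdTomato.

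The tight junction gene Cldn6 and the kinesin gene Kif12 were at 3.04, 7.52, 16.2, 19.1 and 2.36 and 4.60, 6.77, 9.59, 9.41 and 2.04 CPM in YAP_OE 1 to 5 and at most 0.401 and 0.298 CPM in LATS_KO (5.65 ± 0.97 and 5.82 ± 0.83, edgeR adjusted p = 0.0183 and 0.00618). Cldn6 was lost without LATS_KO 4 or YAP_OE 2, 3 or 4 (adjusted p up to 0.0722) and with group weights in limma voom (0.0615). Angptl4, a secreted inhibitor of lipoprotein lipase, was at 16.8 to 42.1 CPM in YAP_OE and 40.7 to 365 CPM in LATS_KO (-2.34 ± 0.49, edgeR adjusted p = 0.0465), and Mfsd2a, a lysophospholipid transporter, at 1.91 to 5.22 and 2.75 to 87.7 CPM (-3.52 ± 0.69, adjusted p = 0.035). Angptl4 was lost without LATS_KO 4 or 5 or YAP_OE 1, 2, 3, 4 or 5 (adjusted p up to 0.142) and Mfsd2a without LATS_KO 1, 4, 5 or 6 or YAP_OE 1, 2, 3, 4 or 5 (adjusted p up to 0.124).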
